A study of Mus musculus with 9 samples.

Results

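Hormone receptor positive (HR+) luminal cells of the mouse mammary gland were compared between day 7 of pregnancy and the virgin state. The comparison used 6 of the 9 arrays of the series, 3 titled as 7 day pregnant and 3 titled as virgin, with 1 animal per array. It took in every probe whose mean normalised signal reached the background level of 100 (6.64 on the log2 scale) in the day 7 or the virgin group. It held 17947 of the 45281 probes of the array, and these covered 10951 of 19090 named genes, while 2623 of the probes carried no gene name. Of the 17947 probes, 13833 reached the background level in both groups, 2018 through the day 7 mean alone and 2096 through the virgin mean alone. The dimmest probe inside the limit had a mean of 6.64387 in its brighter group and the brightest probe outside it 6.64385.

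All animals were FVB females (FVB/N in the study's methods). The labels give 9 to 11 weeks for all of them, and the methods give 11 weeks at EdU injection for the virgin mice and 9 to 11 weeks at mating for the pregnant mice, so age at harvest was not matched exactly. The day 7 mice came from timed matings with embryos seen in the uterus, the virgin mice were in metestrus, and both groups had received EdU 24 hours before harvest. From each animal 1000 HR+ cells were sorted, gated as luminal by CD24 and CD49f and as HR+ by Sca1 and CD49b once dead, CD45+ and stromal cells had been removed, and RNA equivalent to 167 cells was amplified in 2 rounds. Another 3 arrays of the same series held cells from day 3 of pregnancy and entered the same fit. The HR+ cell is the luminal cell that carries the receptors for oestrogen and progesterone. It senses the hormones of pregnancy and passes their signal on through secreted factors, among them RANKL, WNT4 and IGF2, that act on neighbouring luminal and basal cells while ducts branch and alveoli form.

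The labelled cell type was checked against its markers. In day 7 cells the progesterone receptor gene Pgr stood at 8.51, 7.90 and 8.13 on the log2 scale, against 9.08, 9.39 and 9.46 in virgin cells. The luminal keratin Krt8 was bright in both groups, at 13.87 to 13.97 at day 7 and 14.22 to 14.80 in virgin cells, and Krt18 likewise at 12.75 to 12.97 and 13.40 to 13.90. The oestrogen receptor gene Esr1 lay close to the background level, at 6.82 to 7.07 at day 7 and 6.54 to 7.13 in virgin cells. Elf5, the transcription factor that marks HR- luminal cells, was as dim, at 6.61 to 6.92 at day 7 and 6.61 to 7.08 in virgin cells. Elf5 was among 15 measured HR- markers, and others, such as Csn3 and Ltf described further on, were brighter. The signal summed over the 15 was 29480 to 43940 at day 7 and 39100 to 45760 in virgin cells. The 19 measured HR+ markers summed to 42290 to 51960 at day 7 and 78930 to 93040 in virgin cells. This sum is weighted to bright members, among them Krt8, Krt18 and Stc2, the last described further on. By gene, 3 of the 19 were called higher, 6 lower and 10 neither, with a median log2 change of -0.44. The part of HR- cells in these values was not tested. Raw signals averaged 348 to 440 on the day 7 arrays and 284 to 316 on the virgin arrays, and 31.4 to 42.5% of the probes of a day 7 array and 28.1 to 40.1% of those of a virgin array reached a raw signal of 100. Pairs of arrays correlated at 0.974 to 0.983 within day 7, 0.966 to 0.976 within virgin and 0.920 to 0.935 between the groups. In sorted bulk samples, fewer cells of a type and less RNA per cell cannot be told apart.

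Of the 10951 genes tested, 857 were called changed (7.83%), 421 of them higher at day 7 (3.84%), 435 lower (3.97%) and 1 in both directions by different probes (0.00913%). A gene was called where at least 1 of its probes differed by 2-fold or more (1 on the log2 scale) with an adjusted p of 0.10 or less from limma. By probe, 1103 of 17947 passed (6.15%), 543 of them higher (3.03%) and 560 lower (3.12%), and 109 of the called probes had no gene name. The median log2 change was 1.33 among the higher genes and -1.40 among the lower genes, against -0.01 over all genes tested. The groups did not overlap on the brightest probe of 821 of the 856 genes called in 1 direction, where 35.8% of all genes and 33.7% of all probes tested did not overlap. The gene called both ways was H2bc6, a histone gene with near-identical copies, whose brightest probe changed by -1.54 while another probe rose by 1.87. The balance of higher and lower genes depended on the normalisation. When each array was scaled to a common median in place of quantile normalisation, 1396 genes were higher (12.8%) and 182 lower (1.67%). The median change over the tested probes was then 0.21, against -0.01 in the reported comparison. Raw medians of the 9 arrays were 87.2 to 99.3, under the background level of 100. Under cyclic loess 48.1% of the called genes were higher, and with normexp background correction 50.2%. With the raw signals quantile normalised anew it was 49.8%, against 49.1% in the reported comparison. Losses of single genes under median scaling refer to the brightest probe.

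**Figure D1:**
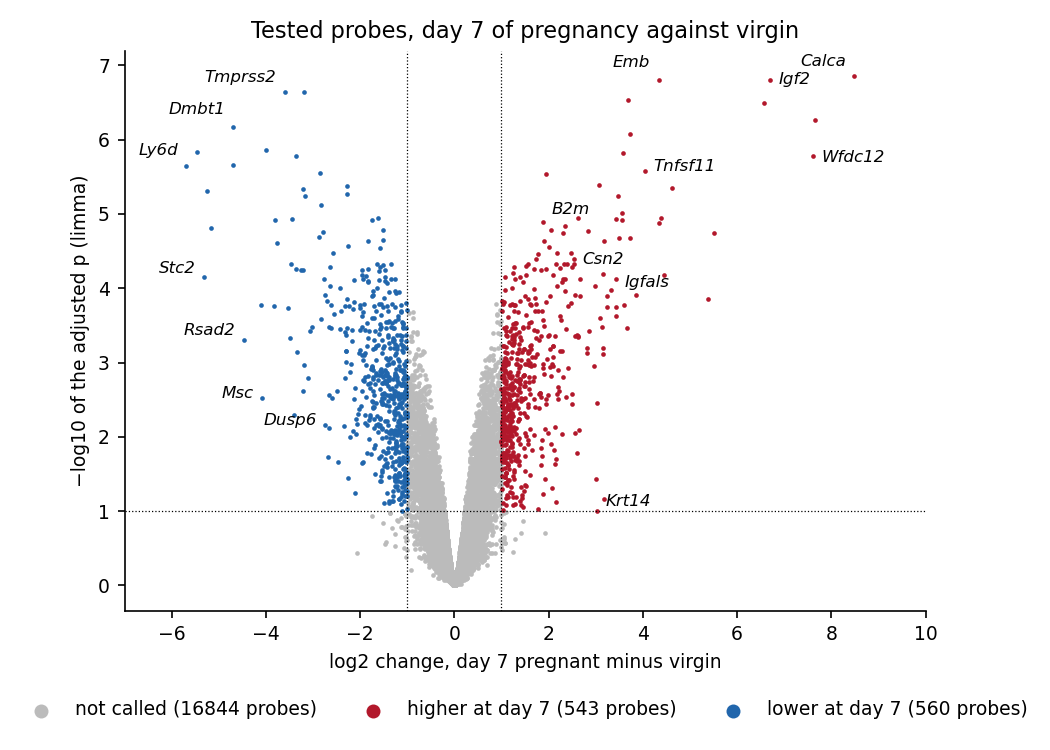
Each point is 1 of the 17947 tested probes, with its log2 change (day 7 pregnant minus virgin) on the horizontal axis and −log10 of its limma adjusted p on the vertical axis; dotted lines mark a change of 1 either way and an adjusted p of 0.10. The 543 higher probes (red) and 560 lower probes (blue) reach changes of 8.49 and -5.69, with Calca farthest to the right and Ly6d farthest to the left.

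The largest rise was that of Calca, the gene for calcitonin and its alternatively spliced peptide CGRP. Calca stood at 15.51, 15.39 and 15.51 in the day 7 animals, against 6.85, 7.33 and 6.76 in the virgin animals, a log2 change of 8.49 (standard error 0.18, n = 3 each, adjusted p = 1.4e-07 from limma). The day 7 values lay close to 15.58, the highest value on these arrays, and the virgin values close to background. All 4 of its tested probes rose, the other 3 by 3.69 to 6.58. Wfdc12, a small secreted protein with a WAP domain, was next, with 14.82, 14.94 and 14.32 at day 7, against 6.54, 6.93 and 7.80 in virgin cells (change 7.61, standard error 0.29). Igf2, the fetal insulin-like growth factor that acts on alveolar growth, had 13.23, 13.13 and 13.66 at day 7, against 6.62, 6.85 and 6.43 in virgin cells (change 6.71). In each of these genes the lowest day 7 animal exceeded the highest virgin animal by more than 6 on the log2 scale.

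Several enzymes and secreted proteins followed. Gldc, the glycine decarboxylase of the glycine cleavage system, had 12.89, 12.02 and 12.96 at day 7 and 7.41, 6.44 and 7.46 in virgin cells (change 5.52), although its other probe changed by 0.37. Nrep had 13.44, 12.83 and 13.27 at day 7, and its virgin values of 6.76, 8.94 and 7.72 were the most scattered of this set (change 5.38, standard error 0.46). Slpi, the secretory leukocyte protease inhibitor of mucosal fluids, had 13.32, 13.08 and 12.91 at day 7 and 8.18, 8.28 and 9.02 in virgin cells (change 4.61). It was thus already expressed above background in the virgin state, as was Emb, the membrane glycoprotein embigin, with 12.46, 12.48 and 12.59 at day 7 and 8.09, 8.15 and 8.28 in virgin cells (change 4.33, standard error 0.10). Mdk, the heparin-binding growth factor midkine, had 12.50, 11.94 and 11.94 at day 7, against 7.53, 8.04 and 7.66 in virgin cells (change 4.38). Sftpd, the collectin known as surfactant protein D, had 11.25, 11.02 and 11.57 at day 7 and 6.62, 7.42 and 6.73 in virgin cells (change 4.35). Of the other genes among the 12 largest rises, the hypoxia factor Hif3a changed by 4.45, the RANKL gene Tnfsf11 by 4.04 and the replication kinase Cdc7 by 3.86, and their groups stood apart too. The second probe of Hif3a changed by -0.06.

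The largest fall was that of Ly6d, a small membrane-anchored protein of the Ly6 family. Ly6d stood at 6.80, 7.12 and 7.88 at day 7, against 13.01, 12.91 and 12.94 in virgin cells (change -5.69, standard error 0.23, adjusted p = 2.2e-06 from limma), and its other probe changed by -5.46. Stc2, a secreted stanniocalcin and a known oestrogen-responsive gene, had 8.49, 7.58 and 8.84 at day 7 and 12.76, 14.04 and 14.04 in virgin cells (change -5.31). Ido1, the enzyme that breaks down tryptophan, had 6.63, 6.67 and 6.50 at day 7 and 12.11, 11.27 and 12.15 in virgin cells (change -5.24). Ido1 thus lay at the background level in all 3 pregnant animals. Dmbt1, a mucosal scavenger protein, was under background in every day 7 animal, at 6.11, 6.32 and 6.32, against 10.86, 11.18 and 10.76 in virgin cells, which makes it at least 19.6-fold lower (adjusted p = 6.7e-07). The alarmin cytokine Il33 was also under background in every day 7 animal, at 6.52, 6.51 and 6.59, against 11.50, 9.75 and 10.65 in virgin cells, at least 15.9-fold lower.

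The antiviral gene Rsad2 (viperin) had 6.39, 6.81 and 7.23 at day 7 and 10.34, 11.12 and 12.36 in virgin cells (change -4.46, standard error 0.49). The transcription factor gene Msc had 6.38, 6.49 and 8.75 at day 7 and 11.23, 11.05 and 11.56 in virgin cells (change -4.07, standard error 0.63), so day 7 replicate 3 was the highest of its group. Emp1, an epithelial membrane protein, had 9.18, 9.03 and 9.41 at day 7, against 13.74, 12.47 and 12.87 in virgin cells (change -3.82). Kif5c, a kinesin heavy chain, changed by -4.70, the cytochrome P450 gene Cyp3a57 by -4.0 and Fam25c by -3.77, and none of their day 7 arrays reached the lowest virgin array. The Cyp3a genes of the mouse are near-identical in part, so the signal named Cyp3a57 may hold transcripts of its relatives. Tmprss2, a membrane-bound serine protease, remained expressed, at 10.37, 10.65 and 10.56 at day 7 and 14.22, 14.12 and 14.05 in virgin cells (change -3.60, standard error 0.10).

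**Figure D2:**
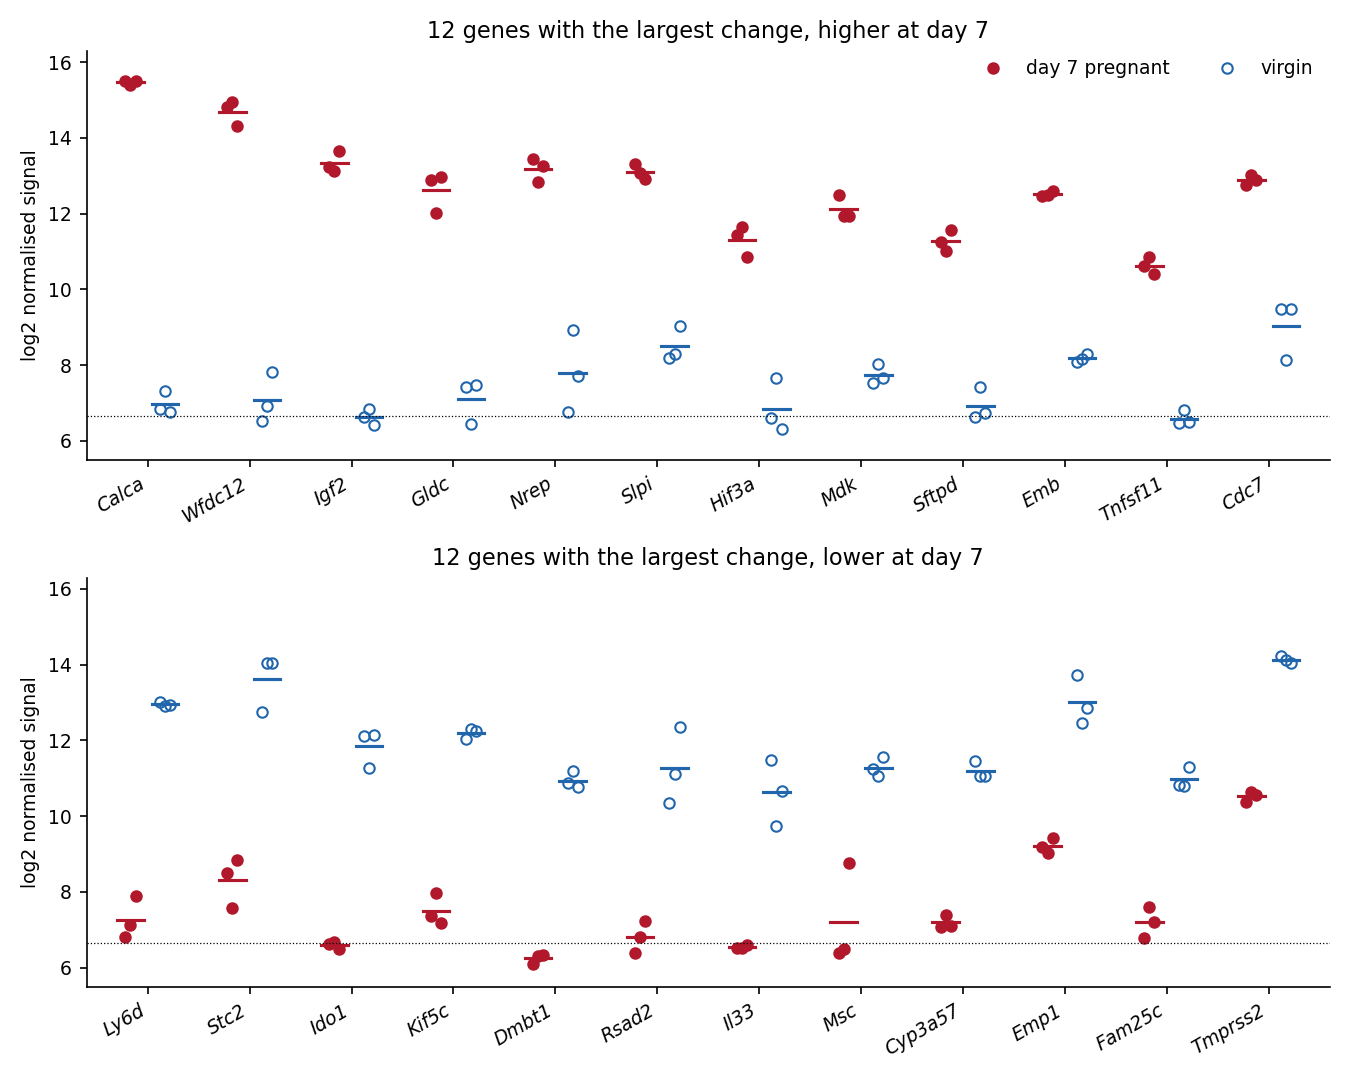
Log2 normalised signal of the 12 genes with the largest rise (top) and the 12 with the largest fall (bottom), 1 point per animal, day 7 pregnant filled and left, virgin open and right, with a bar at each mean; the dotted line is the background level of 6.64. No gene has overlapping groups, and the day 7 values of Dmbt1 and Il33 all lie under the line.

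Fos and Jun family proteins bind the AP-1 sequence, and genes for several of them were among the lower genes described further on. The promoters of the called genes, 250 bases before to 50 after the start of transcription in RefSeq (build GRCm38.p6), were therefore searched for its letters, TGANTCA, on both strands, a choice made after the values were seen. A promoter was found for 329 lower and 327 higher genes. The letters stood in 49 of the 329 promoters of lower genes (14.9%), in 6.42% of those of higher genes, in 6.82% of 8184 tested genes that were not called and in 7.81% of all 32851 promoters of the table. Other letters were searched in the same promoters, and those of STAT5 are given further on. The TATA letters, TATAAA, stood in 17.6% of promoters of lower genes, 12.5% of higher genes and 9.86% of genes not called. The letters TGTTCT, part of the site of progesterone and glucocorticoid receptors, stood in 14.3%, 15.6% and 15.9%. The CRE letters, TGACGTCA, stood in 4.26%, 3.98% and 3.34%. A larger share among lower genes was thus not particular to AP-1. All these shares are a description and no evidence of binding. The promoters of Rsad2 (chr12:26456403-26456702, minus strand) and Emp1 (chr6:135362681-135362980, plus strand) are shown. These are the 2 most strongly lower genes that held the AP-1 letters, which are in capitals. The match of Rsad2 begins 87 bases before the start of transcription, and those of Emp1 begin 145 and 25 bases before it.
Rsad2: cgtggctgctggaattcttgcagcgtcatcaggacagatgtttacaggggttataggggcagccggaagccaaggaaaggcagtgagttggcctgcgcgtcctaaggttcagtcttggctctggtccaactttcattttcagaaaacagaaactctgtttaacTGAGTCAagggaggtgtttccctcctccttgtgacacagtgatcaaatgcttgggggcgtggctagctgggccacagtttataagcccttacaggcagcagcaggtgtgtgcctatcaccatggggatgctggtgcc
Emp1: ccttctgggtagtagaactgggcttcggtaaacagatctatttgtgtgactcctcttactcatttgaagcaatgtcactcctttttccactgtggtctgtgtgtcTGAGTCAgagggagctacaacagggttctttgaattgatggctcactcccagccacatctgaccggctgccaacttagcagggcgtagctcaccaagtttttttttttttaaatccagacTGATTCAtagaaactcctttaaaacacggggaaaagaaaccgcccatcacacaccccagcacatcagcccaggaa

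Progesterone acts on HR+ cells through its receptor, and 6 of the 14 measured genes of a list of progesterone targets rose, while 8 did not pass. Here and in the lists that follow, the counts stand against 3.84% of all genes called higher and 3.97% called lower. Counts under median scaling stand against 12.8% of all genes called higher and 1.67% called lower under that scaling. The lists were chosen with earlier results of these data known, so the counts describe them and are no test of enrichment. The median change of the list was 0.78, against -0.01 over all genes tested. Beside Calca, the largest was Tnfsf11, whose product RANKL drives proliferation of neighbouring HR- cells, with 10.62, 10.85 and 10.39 at day 7 and 6.46, 6.81 and 6.48 in virgin cells (change 4.04, standard error 0.17, adjusted p = 2.6e-06 from limma). Tnfsf11 was thus well above background at day 7 and around it in virgin cells. Fkbp5, a co-chaperone of steroid receptors, had 10.29, 10.16 and 10.64 at day 7 and 6.69, 7.72 and 6.93 in virgin cells (change 3.25), and Igfals, which holds IGFs in a ternary complex in blood, had 11.45, 11.11 and 11.21 at day 7 and 7.40, 8.50 and 7.55 in virgin cells (change 3.44). Cdkn1c, the CDK inhibitor p57, had 9.90, 9.47 and 10.57 at day 7 and 8.12, 7.75 and 8.08 in virgin cells (change 2.00, adjusted p = 0.0088). Wnt4, a Wnt ligand of side branching, sat at the limit of the call, with 9.94, 9.60 and 9.81 at day 7, against 8.25, 9.21 and 8.86 in virgin cells (change 1.01, adjusted p = 0.021). Its other probe changed by 0.36, and the change was 0.75 and not called without virgin replicate 1, 0.93 without day 7 replicate 1 and 0.99 without day 7 replicate 3. The related co-chaperone gene Fkbp4 differed by 0.97 (adjusted p = 0.00041), just short of the fold, with 12.46, 12.33 and 12.57 at day 7 and 11.49, 11.39 and 11.56 in virgin cells.

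Of 10 measured genes of prolactin and STAT5 signalling, 2 rose and 1 fell. Socs2, a feedback inhibitor of this pathway, had 12.66, 12.20 and 12.40 at day 7 and 9.67, 10.11 and 10.03 in virgin cells (change 2.48, adjusted p = 3.3e-05 from limma). Its relative Socs3, which is also induced by cytokines of the IL6 family, moved the other way, with 9.89, 9.71 and 9.90 at day 7 and 11.39, 12.21 and 11.91 in virgin cells (change -2.0). Cish, another member of the same family, differed by 0.56 and did not pass. Of 13 measured oestrogen targets, 2 fell, Stc2 and Pgr, whereas under median scaling 2 members were higher and 1 lower. Pgr changed by -1.13 (standard error 0.16, adjusted p = 0.0020 from limma), its second probe by -0.39, and the call was lost at -0.56 under median scaling and at -0.99 without day 7 replicate 2. Greb1 and Xbp1, other targets of the list, differed by -0.75 and -0.44 and did not pass. Greb1 passed, at -1.08, when virgin replicate 3 was left out. The change of Foxa1, a pioneer factor for this receptor, was -1.26, with 8.96, 9.21 and 9.01 at day 7 and 10.28, 10.28 and 10.38 in virgin cells, and -0.65 and no longer called under median scaling. Over the 19 measured markers of HR+ luminal cells, which hold several of these genes, 3 rose and 6 fell, or 4 rose and 3 fell under median scaling. Gata3 and Cited1, both of which mark these cells, differed by -0.15 and 0.33 and did not pass.

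In the insulin-like growth factor axis 4 of 13 measured genes rose and 9 did not pass. They were Igf2, Igfals, Igfbp5 and Igfbp7, while the receptor gene Igf1r differed by -0.17. Igfbp5, a secreted binding protein, was bright throughout, with 13.51, 13.68 and 13.17 at day 7 and 12.03, 11.75 and 11.14 in virgin cells (change 1.81, adjusted p = 0.0026 from limma), and its other probes rose by 2.62 and 2.63. Igfbp7 was scattered, with 10.46, 9.24 and 11.47 at day 7 and 9.03, 8.22 and 7.73 in virgin cells (change 2.07, standard error 0.61), and it was not called without day 7 replicate 1 or 3 or virgin replicate 2 or 3 (1.53 to 2.03). Of 15 measured imprinted growth genes, 3 rose and 2 fell. Peg3, a paternally expressed zinc finger gene, had 9.63, 9.82 and 10.13 at day 7 and 6.81, 6.67 and 6.85 in virgin cells (change 3.08), with virgin values near background. Dcn, the matrix proteoglycan decorin, had 8.67, 9.32 and 9.21 at day 7 and 10.97, 11.48 and 11.47 in virgin cells (change -2.24), and Phlda2, which restrains placental growth, had 7.39, 7.17 and 7.32 at day 7 and 9.57, 8.72 and 8.74 in virgin cells (change -1.72).

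Ligands of the EGF family act on luminal and basal cells through ERBB receptors, and 3 of the 7 measured genes of this family fell, all of them ligands. The list holds 15 genes, of which 6 did not reach the background level and 2 had no named probe. The ligand gene Areg, a listed marker of HR+ cells, had no named probe and was not read. Epgn (epigen) had 9.18, 8.62 and 8.47 at day 7 and 13.76, 10.99 and 11.72 in virgin cells (change -3.40, standard error 0.59, adjusted p = 0.0051 from limma). Virgin replicate 1 was the highest by far, yet every day 7 array was under every virgin array. Hbegf had 7.99, 7.65 and 8.30 at day 7 and 10.14, 9.55 and 10.14 in virgin cells (change -1.97), and Nrg4 (neuregulin 4) had 7.01, 8.33 and 7.80 at day 7 and 8.89, 10.03 and 9.67 in virgin cells (change -1.82). The second probes of Epgn and Nrg4 lay near zero, at -0.03 and -0.23. The receptor Erbb2 differed by 0.98 and missed the fold, and it passed without day 7 replicate 3 (1.06), without virgin replicate 2 (1.14) and under median scaling (1.51).

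Among 18 measured genes of the Wnt pathway, 3 rose and 3 fell. Beside Wnt4, Dkk3, a secreted protein of the Dickkopf family, had 11.27, 11.14 and 10.56 at day 7 and 7.67, 7.21 and 8.40 in virgin cells (change 3.23, adjusted p = 0.00018 from limma), and both of its probes rose. Fzd3, a Wnt receptor, was under background in every virgin animal and at 7.72, 7.77 and 7.71 at day 7, at least 2.13-fold higher, with its other probes at 0.17 and 0.19. The ligand Wnt5a had 7.17, 6.83 and 7.82 at day 7 and 9.85 to 10.06 in virgin cells (change -2.70). The ligand Wnt7b changed by -1.73 and the receptor Fzd10 by -2.42, with each group apart. These 3 falls were seen on 1 probe each, as the other probes of Wnt5a lay between -0.76 and -0.22, those of Fzd10 between -0.13 and 0.21 and that of Wnt7b at -0.13.

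In the TGF-beta and BMP pathways 2 of 26 measured genes rose and 2 fell, or 3 and 1 under median scaling. The receptor gene Tgfbr2 had 8.63, 8.58 and 8.82 at day 7 and 11.38, 11.02 and 11.34 in virgin cells (change -2.57, adjusted p = 3.3e-05 from limma), with its other probe at -0.06. Smad3, which carries the signal of that receptor to the nucleus, changed by -1.14 on its brighter probe, or by -0.59 and not called under median scaling. The receptors Bmpr1b and Acvr2b rose, by 1.89 and 1.47. Bmpr1b had 9.78, 9.98 and 9.84 at day 7 and 8.40, 7.40 and 8.13 in virgin cells, and Acvr2b had 8.67, 8.51 and 8.38 at day 7 and 7.08, 7.08 and 7.00 in virgin cells. Of 26 measured cytokines and chemokines, 2 rose and 5 fell. Il19, of the IL10 family, had 9.17, 9.17 and 10.14 at day 7 and 6.65, 6.56 and 6.83 in virgin cells (change 2.81). The falls were Il33 and the chemokines Cxcl15, Cxcl16, Cxcl17 and Cxcl2, which changed by -1.82, -1.64, -1.50 and -1.14. Cxcl2 was not called without day 7 replicate 2 (-0.92) or under median scaling (-0.68).

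**Figure D3:**
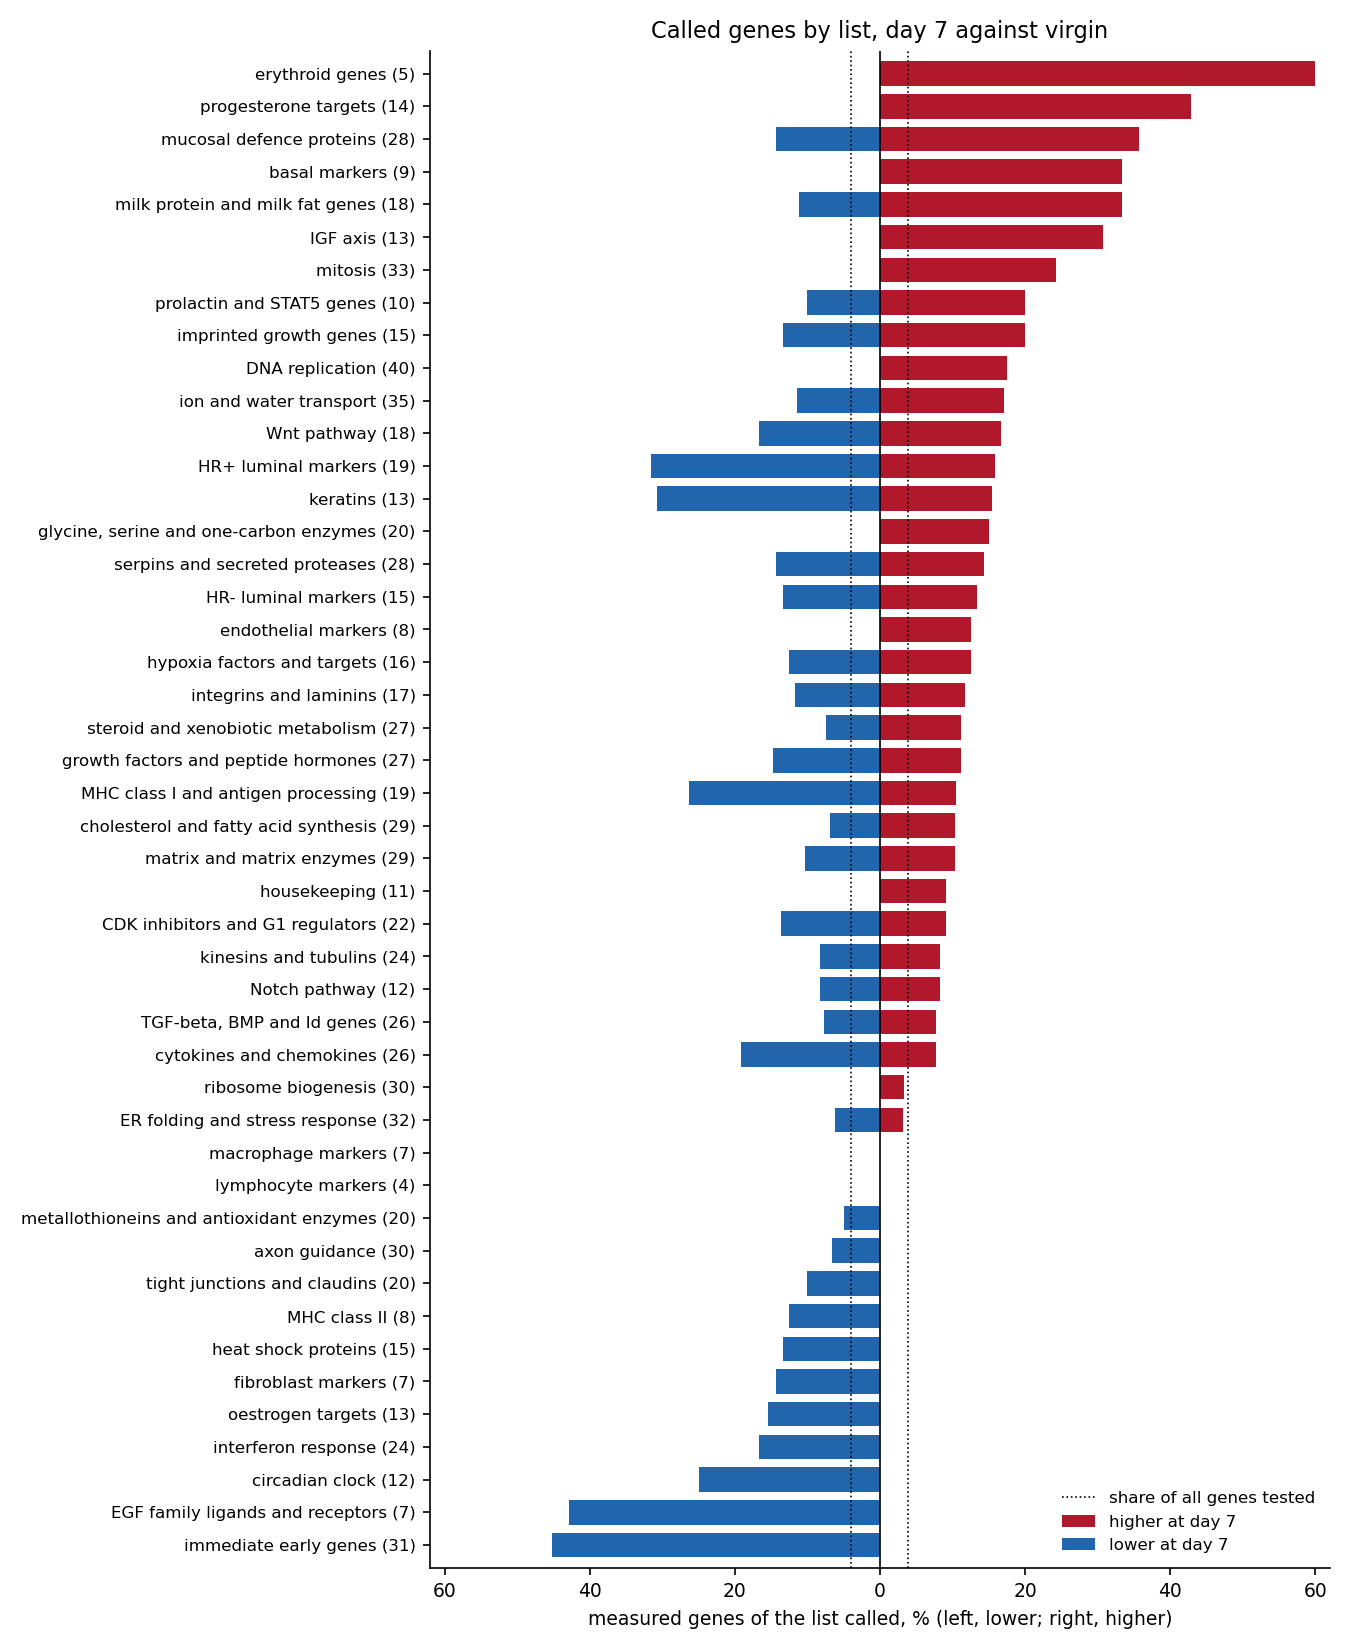
For each gene list with at least 4 measured genes, the share of its measured genes (number in brackets) called higher (red, right) or lower (blue, left) at day 7 than in virgin cells, in percent; dotted lines mark 3.84% higher and 3.97% lower over all genes tested. The erythroid genes (3 of 5), progesterone targets (6 of 14) and mucosal defence proteins (10 of 28) have large shares to the right. So do the basal markers (3 of 9) and the milk genes (6 of 18). The immediate early genes and EGF family have large shares to the left. The lists overlap, differ in size and were chosen with earlier results of these data known.

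Mucosal defence proteins are secreted by glandular epithelia, and 10 of 28 measured members rose and 4 fell (median change 0.33). Wfdc12, Slpi and Sftpd were given above. Wfdc18, another protein with a WAP domain, had 9.66, 10.53 and 10.17 at day 7 and 7.85, 8.37 and 8.01 in virgin cells (change 2.04, adjusted p = 0.0015 from limma). The beta-defensin gene Defb1 had 10.20, 9.81 and 10.64 at day 7 and 7.40, 9.23 and 8.51 in virgin cells (change 1.84). Complement factor B (Cfb) rose by 1.50 and complement C4b by 1.55. The mucin Muc1 had 8.68, 8.01 and 8.67 at day 7 and 6.47, 6.68 and 6.52 in virgin cells (change 1.90), while its other probes lay at 0.28 and 0.96. Lower, beside Dmbt1, were Wfdc2, the lectin Reg3g, which was under background in every day 7 animal and at least 2.15-fold lower, and Chil1 (change -1.55, and -1.50 and not called without day 7 replicate 2). Wfdc2 stayed among the brightest genes of the list, with 13.54, 13.43 and 13.32 at day 7 and 14.75, 14.77 and 14.54 in virgin cells (change -1.26, or -0.90 and not called under median scaling). Lactoferrin (Ltf) was scattered, with 7.83, 9.96 and 7.63 at day 7 and 10.30, 10.71 and 8.85 in virgin cells, and did not pass.

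The genes of MHC class I presentation did not move as one. Of 19 measured, 2 rose and 5 fell, with a median of -0.51. B2m, the light chain of all class I molecules, had 13.89, 13.90 and 14.04 at day 7 and 11.94, 12.18 and 12.04 in virgin cells (change 1.89, standard error 0.10, adjusted p = 1.3e-05 from limma), and its second probe rose by 1.94. Cd1d1, which presents lipids, rose by 1.30. The peptide transporter Tap2 had 9.03, 9.18 and 9.26 at day 7 and 10.75, 11.00 and 10.40 in virgin cells (change -1.56), and the immunoproteasome subunits Psmb9 and Psmb10 changed by -1.59 and -1.34. The heavy chain H2-D1, whose probes may also read related H2 genes, changed by -1.02 and lost its call without day 7 replicate 2 (-0.98) or virgin replicate 1 (-0.86). Under median scaling 1 of the class I genes stayed lower and Tap2 (-0.95), Psmb10 (-0.79) and H2-D1 (-0.43) were not called. Of 24 measured genes of the interferon response 4 fell, namely Ido1, Rsad2, the GTPase gene Gbp2 (change -1.53) and the protease gene Usp18 (change -1.43), and the 2 last named were not called under median scaling (-0.93 and -0.89). Under that scaling 5 members of the list were called higher and 2 lower. The median change of this list was -0.11.

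Immediate early genes are induced within minutes by growth factors or stress. Of 31 measured, 14 fell and 17 did not pass, and the median change was -0.95. Fos had 11.95, 11.84 and 12.03 at day 7 and 13.66, 13.35 and 13.36 in virgin cells (change -1.52, adjusted p = 0.00018 from limma). Fosb had 12.15, 12.25 and 12.50 at day 7 and 13.97, 13.81 and 13.90 in virgin cells (change -1.59), and Jun had 10.66, 10.73 and 10.99 at day 7 and 11.92, 12.46 and 12.22 in virgin cells (change -1.40). All 3 genes stayed bright at day 7 with tight groups. The largest fall of the list was that of Dusp6, a phosphatase that limits ERK signalling, with 9.38, 10.32 and 11.73 at day 7 and 12.87, 13.23 and 13.55 in virgin cells (change -2.74, standard error 0.51). Klf4 and Klf2, zinc finger factors, changed by -1.87 and -1.81, and Gadd45a and Gadd45g, of growth arrest, by -1.91 and -1.56. Egr1, the brightest of them, had 14.47, 14.63 and 14.58 at day 7 and 14.71, 14.97 and 15.34 in virgin cells and did not pass. Under median scaling 8 members fell, and Jun (-0.84), Zfp36 (-0.96) and Atf3 (-1.0) were among those that no longer passed.

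Of 12 measured clock genes, 3 fell, while 5 did without virgin replicate 2 and 1 under median scaling. Dbp, an output of the clock, had 9.35, 8.76 and 9.28 at day 7 and 10.69, 11.04 and 10.67 in virgin cells (change -1.67, adjusted p = 0.00059 from limma). Per2 changed by -1.28 and Bhlhe40 by -1.54, and neither passed under median scaling (-0.79 and -0.94). Of 15 measured heat shock proteins the small chaperones Hspb1 and Hspb8 changed by -1.33 and -1.62, and Hspb1 was not called under median scaling (-0.81).

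Of 40 measured genes of DNA replication 7 rose and 33 did not pass (median 0.47), and of 33 measured genes of mitosis 8 rose and 25 did not pass (median 0.33). Without day 7 replicate 2, 4 and 5 of them rose, and under median scaling 16 replication genes did. Mcm5, a subunit of the replicative helicase, had 9.11, 9.90 and 9.18 at day 7 and 7.31, 7.17 and 7.64 in virgin cells (change 2.02, adjusted p = 0.0011 from limma). Pbk, a mitotic kinase, was under background in every virgin animal and at 8.75, 9.24 and 8.18 at day 7, at least 4.23-fold higher. The chromosomal kinesin Kif22 had 9.16, 9.69 and 8.83 at day 7 and 6.94, 6.82 and 6.69 in virgin cells (change 2.41), and Cdca8, a subunit of the chromosomal passenger complex, had 9.32, 9.99 and 9.01 at day 7 and 6.77, 7.71 and 6.62 in virgin cells (change 2.41). In each of these genes day 7 replicate 2 was the highest array. Among 22 measured regulators of G1, Cdkn1c and Cdk4 rose, and the CDK inhibitors Cdkn1a and Cdkn2b and the cyclin Ccng1 fell. Cdkn1a (p21) had 9.56, 9.27 and 9.47 at day 7 and 11.56, 10.60 and 10.73 in virgin cells (change -1.53), and Cdkn2b (p15) had 6.59, 7.21 and 8.08 at day 7 and 8.91, 9.02 and 8.48 in virgin cells (change -1.51). Under median scaling Cdkn2b (-1.07) and Ccng1 (-0.82) were not called, and Cdkn1a was called by another probe (-1.17) but not by its brightest (-0.94). Ccnd1, cyclin D1, differed by -0.61 and did not pass.

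Milk proteins are products of secretory alveolar cells, and 6 of 18 measured genes of a list of milk protein and milk fat genes rose and 2 fell. The rises were Csn2, Csn1s1, Csn1s2b, Wap, Muc1 and Aldoc, of which Aldoc is an aldolase gene and codes for no milk protein. The caseins did not move together. Csn2 (beta-casein) was under background in every virgin animal and at 9.18, 9.22 and 8.57 at day 7, at least 5.09-fold higher (adjusted p = 4.7e-05 from limma). Csn1s1 had 8.58, 9.61 and 8.32 at day 7 and 7.11, 6.61 and 6.40 in virgin cells (change 2.13), and Csn1s2b was at least 2.40-fold higher. Csn3 (kappa-casein) went the other way, with 9.78, 10.86 and 8.20 at day 7 and 12.31, 12.72 and 11.87 in virgin cells (change -2.69, adjusted p = 0.019), as did the milk fat globule protein Btn1a1, with 6.80, 8.29 and 7.18 at day 7 and 9.61, 10.88 and 9.78 in virgin cells (change -2.67). Wap, the whey acidic protein, was above background in 2 of 3 day 7 animals, at 8.51, 7.98 and 6.38, and at 6.20 to 6.41 in virgin cells, at least 1.97-fold higher (adjusted p = 0.080 from limma). Its call was lost without day 7 replicate 1 or 2 or any 1 virgin array (adjusted p = 0.14 to 0.21 from limma). The call of Wap was also lost under cyclic loess, with no filter on dim probes, with only the 6 arrays compared and at an adjusted p of 0.05. Csn2 and Csn3 are also markers of HR- luminal cells, of which 2 rose and 2 fell among 15 measured, with a summed signal of 29480 to 43940 at day 7 and 39100 to 45760 in virgin cells. The part of such cells in these values was not tested.

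STAT5, the factor that carries the prolactin signal, binds the letters TTCNNNGAA. They stood in 10.4% of the promoters of higher genes, 8.81% of those of lower genes, 8.30% of those of genes not called and 8.30% of all promoters of the table, on both strands, with the same window as above. The promoters of Csn2 (chr5:87699376-87699675, minus strand) and Csn1s1 (chr5:87665958-87666257, plus strand) are shown, from RefSeq in build GRCm38.p6, since these casein genes rose and hold the letters, which are in capitals and start 93 and 100 bases before the start of transcription.
Csn2: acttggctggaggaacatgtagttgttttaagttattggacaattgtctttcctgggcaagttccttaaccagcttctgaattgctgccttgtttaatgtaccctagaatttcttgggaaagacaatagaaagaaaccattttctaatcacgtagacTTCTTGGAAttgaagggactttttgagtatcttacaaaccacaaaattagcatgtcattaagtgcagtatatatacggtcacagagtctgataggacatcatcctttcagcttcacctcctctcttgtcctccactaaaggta
Csn1s1: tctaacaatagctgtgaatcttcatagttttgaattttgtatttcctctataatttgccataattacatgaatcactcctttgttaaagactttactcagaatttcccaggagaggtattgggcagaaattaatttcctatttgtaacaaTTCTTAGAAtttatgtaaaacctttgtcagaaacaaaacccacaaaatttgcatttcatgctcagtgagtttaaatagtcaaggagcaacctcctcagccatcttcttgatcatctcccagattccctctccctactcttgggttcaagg

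Of 35 measured genes of ion and water transport, 6 rose and 4 fell. The beta subunit of the epithelial sodium channel, Scnn1b, had 11.95, 12.16 and 11.54 at day 7 and 8.24, 8.59 and 8.55 in virgin cells (change 3.43, adjusted p = 1.2e-05 from limma). The gamma subunit Scnn1g had 7.93, 8.04 and 8.02 at day 7 and 6.67, 6.95 and 6.74 in virgin cells (change 1.21), whereas the alpha subunit Scnn1a differed by -0.22 and did not pass. Fxyd2, a regulator of the sodium pump, rose by 1.34, the Golgi calcium pump Atp2c1 by 1.57 and the chloride channel Ano1 by 1.15, or by 0.94 and not called without virgin replicate 1. The water channel Aqp5 had 8.28, 8.77 and 8.59 at day 7 and 10.93, 11.70 and 10.88 in virgin cells (change -2.63). The sodium iodide symporter Slc5a5 had 9.85, 9.35 and 9.88 at day 7 and 13.06, 13.28 and 13.08 in virgin cells (change -3.45), with its second probe at -0.80. The chloride channel protein Clic6 changed by -1.77.

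Among 13 measured keratins, 2 rose and 4 fell. Krt17 had 10.12, 10.28 and 11.45 at day 7 and 7.48, 6.61 and 6.79 in virgin cells (change 3.66, adjusted p = 0.00035 from limma). Krt14 overlapped between groups, with 8.76, 10.38 and 12.87 at day 7 and 9.18, 6.98 and 6.75 in virgin cells (change 3.03, standard error 1.11, adjusted p = 0.099 from limma). Its call was lost without day 7 replicate 2 or 3, without virgin replicate 2 or 3 (1.93 to 3.18) and with the replicate number as a block (3.03). The call of Krt14 was also lost under cyclic loess, with array weights, with no filter on dim probes, with only the 6 arrays compared and at an adjusted p of 0.05. Both are keratins of basal cells. Krt16 changed by -1.95 and the luminal keratins Krt7 and Krt19 by -1.10 and -1.07, the last 2 not called under median scaling (-0.60 and -0.48). Krt19 was not called either without virgin replicate 1 (-0.91). Among 20 measured junction genes, the claudin Cldn4 had 11.47, 11.44 and 11.84 at day 7 and 14.38, 13.37 and 13.54 in virgin cells (change -2.18), and the E-cadherin gene Cdh1 had 10.86, 10.83 and 11.03 at day 7 and 12.29, 11.72 and 12.10 in virgin cells (change -1.13, or -0.59 and not called under median scaling). Of 17 measured integrins and laminins, 2 rose and 2 fell. The integrins Itgb6 and its partner Itgav changed by -2.22 and -1.67, while the integrin Itgb5 was called higher and the laminin chain Lamc1 rose by 1.59. Lamc1 had 13.30, 13.01 and 12.57 at day 7 and 11.22, 11.39 and 11.50 in virgin cells.

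In the matrix list, 3 of 29 measured genes rose and 3 fell. Bgn (biglycan) had 10.22, 8.38 and 9.53 at day 7 and 7.98, 7.35 and 6.36 in virgin cells (change 2.15, adjusted p = 0.020 from limma), and the membrane metalloprotease Mmp14 had 9.10, 8.99 and 8.57 at day 7 and 7.79, 7.83 and 6.92 in virgin cells (change 1.37). The metalloprotease inhibitors split, as Timp3 rose by 1.17 and Timp2 changed by -1.18, or by -0.56 and not called under median scaling. Serpinh1, the collagen chaperone HSP47, had 10.60, 10.40 and 11.00 at day 7 and 8.92, 8.24 and 8.41 in virgin cells (change 2.14). The protease gene Prss22 and the urokinase receptor Plaur changed by -2.06 and -1.71.

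Enzymes of glycine and one-carbon metabolism rose in 3 of 20 cases, with Gldc joined by the serine hydroxymethyltransferase Shmt1 and the glycine transporter Slc6a9. Shmt1 had 10.98, 10.92 and 10.79 at day 7 and 9.70, 9.20 and 9.47 in virgin cells (change 1.44, adjusted p = 0.00071 from limma), and Slc6a9 had 10.27, 10.22 and 9.76 at day 7 and 8.93, 9.15 and 8.82 in virgin cells (change 1.12). Of 29 measured genes of lipid synthesis, 3 rose and 2 fell, while under median scaling 6 were higher and the 2 lower calls were lost. The fatty acid desaturase Fads1 was tight at day 7, with 12.48, 12.66 and 12.61, and spread in virgin cells, with 11.17, 10.24 and 8.65 (change 2.56), and the acyltransferase Gpat4 rose by 1.26. Of enzymes that act on steroids and foreign compounds, Sult1a1 had 9.11, 8.70 and 8.57 at day 7 and 6.59, 6.55 and 6.68 in virgin cells (change 2.19), the glutathione transferase Gsta4 rose by 1.95, and Hsd11b2, which inactivates glucocorticoids, rose by 1.39. Gstm2 changed by -1.55, or by -0.95 and not called under median scaling.

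Some lists held close to the share of calls over all genes. In ribosome biogenesis 1 of 30 measured genes was called, in ER folding and stress response 3 of 32, among antioxidant enzymes 1 of 20 and among axon guidance genes 2 of 30, against 7.83% of all genes. These counts depended on the scaling. Under median scaling 4 genes of ribosome biogenesis, 7 of ER folding, 4 antioxidant enzymes and 3 axon guidance genes were called higher, against 12.8% of all genes, and 1 axon guidance gene lower.

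A further set of strongly changed genes lies outside the rule for named genes and was chosen after the values were seen. Wnk4, a kinase that regulates sodium and chloride transport, had 12.30, 12.54 and 11.96 at day 7 and 8.62, 9.59 and 8.27 in virgin cells (change 3.44, adjusted p = 0.00018 from limma). Porcn, the acyltransferase that Wnt proteins need for secretion, had 11.28, 10.48 and 10.74 at day 7 and 7.86, 8.54 and 8.44 in virgin cells (change 2.55), and both of its probes rose. The sialyltransferase St6gal1 rose by 3.32 and Slc16a5, a monocarboxylate transporter relative, by 3.18. Rcan1, an inhibitor of calcineurin, had 11.16, 11.62 and 11.18 at day 7 and 14.39, 14.71 and 14.50 in virgin cells (change -3.22), and the transcription factor Sox9 had 11.26, 11.50 and 12.30 at day 7 and 14.41, 14.36 and 14.25 in virgin cells (change -2.66). The cytokine receptor subunits Il18r1 and Osmr changed by -3.03 and -2.61. The groups stood apart in each of these genes.

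Markers of other cells were measured in the same arrays. Of 9 measured basal markers 3 rose (Krt14, Krt17 and Trp63). The summed signal of the 9 was 3441, 4958 and 13600 at day 7, highest in replicate 3, and 1903, 1414 and 916 in virgin cells. The other 8 markers, without Krt14, summed to 3008 to 6108 at day 7 and 809 to 1322 in virgin cells. The basal actin Acta2 differed by 1.93 and did not pass, and Tagln and Cnn1 lay near background. Without day 7 replicate 3, Krt17 and Trp63 were still called and Krt14 was not. Of 8 endothelial markers Vwf rose, with 12.07, 12.45 and 11.71 at day 7 and 10.26, 10.98 and 10.33 in virgin cells (change 1.55, adjusted p = 0.0036 from limma), while Pecam1 differed by 0.82 and Kdr by -0.10. The summed endothelial signal was 4310 to 6413 at day 7 and 1965 to 2842 in virgin cells, most of it from Vwf, and the other 7 markers summed to 830 to 1162 at day 7 and 682 to 826 in virgin cells. Of 7 fibroblast markers Dcn fell, and the summed signal was 1112 to 1611 at day 7 and 3034 to 3525 in virgin cells. The other 6 markers, without Dcn, summed to 629 to 1018 at day 7 and 629 to 1023 in virgin cells. None of 7 macrophage, 4 lymphocyte and 3 adipocyte markers was called by limma or by the Cyber-T style test, and of these 2 macrophage markers had an unadjusted p under 0.05, 1 in each direction. The part of other cells in the changes given above was not tested.

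Of 5 measured erythroid genes 3 were called higher. Hba-a1 (alpha-globin) had 11.07, 10.68 and 10.58 at day 7 and 7.30, 7.30 and 7.07 in virgin cells (change 3.55, adjusted p = 1.2e-05 from limma). Hbb-bs (beta-globin) had 11.44, 11.00 and 6.63 at day 7, and 6.48, 6.52 and 6.57 in virgin cells, so it was at background in day 7 replicate 3, in which Hba-a1 was not. Hbb-bt had the same pattern, with 9.93, 9.33 and 6.43 at day 7. The calls of Hbb-bs and Hbb-bt, which are near-identical genes, were lost without day 7 replicate 1 or 2 or any 1 virgin array (adjusted p = 0.13 to 0.20 for Hbb-bs and 0.14 to 0.21 for Hbb-bt, from limma). Both calls were also lost under cyclic loess, with no filter on dim probes, with only the 6 arrays compared and at an adjusted p of 0.05.

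**Figure D4:**
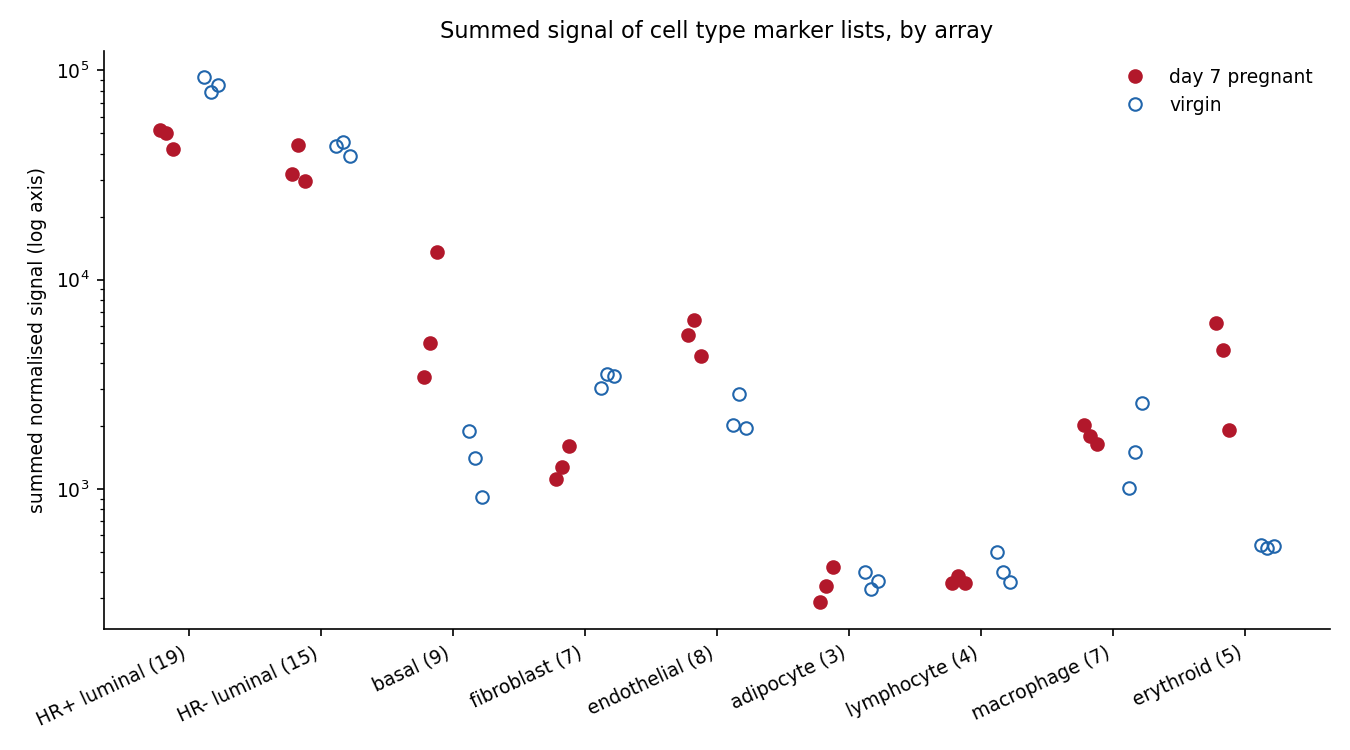
Summed normalised signal (log axis) over the measured markers of each cell type (number in brackets), 1 point per array, day 7 pregnant filled and left, virgin open and right. The basal, endothelial and erythroid sums are higher at day 7 in every array, with basal replicate 3 at 13600. The fibroblast (through Dcn) and HR+ luminal (weighted to bright members) sums are lower, and the adipocyte and macrophage sums overlap.

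The day 3 arrays allow each change to be set beside the earlier stage. The changes from virgin at day 3 and at day 7 share the virgin arrays. A difference between day 7 and day 3 was read from the same fit on the brightest probe. It shares the day 7 arrays with the change of day 7 from virgin. The counts of called genes that also differed from day 3 are therefore not independent of the calls and are a description. Over all genes tested, 2.74% were called higher at day 7 than at day 3 and 2.19% lower. Of the 421 higher genes, 167 also exceeded their day 3 level by the same call, and 15 were lower at day 7 than at day 3. Of the 435 lower genes, 74 were also lower than at day 3, and 2 were higher. Calca differed from virgin by 5.85 at day 3 and by 8.49 at day 7, and from day 3 by 2.64 at day 7. Igf2 differed from virgin by 0.97 at day 3 and rose by 5.74 beyond day 3 (adjusted p = 1.8e-06 from limma), and Scnn1b, at 0.28 from virgin at day 3, rose by 3.14 beyond it. Il33 differed from virgin by 0.37 at day 3 and was at least 20.6-fold lower at day 7 than at day 3. Igfbp5 was at -1.42 from virgin at day 3 and 3.23 higher at day 7 than at day 3. Of the 40 measured DNA replication genes 18 were called lower at day 7 than at day 3, and of the 33 mitosis genes 21, with median differences of -0.99 and -1.38. Mcm5 stood 4.26 above virgin at day 3 and differed by -2.24 between day 7 and day 3. Pbk was at least 39.3-fold higher at day 3 than in virgin cells and differed by -3.22 between day 7 and day 3. Ido1 was already lower at day 3, at -4.41 from virgin. Dmbt1 had 6.77, 6.42 and 6.29 at day 3, at or under background like its day 7 values, so no difference between the pregnant stages is given.

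**Figure D5:**
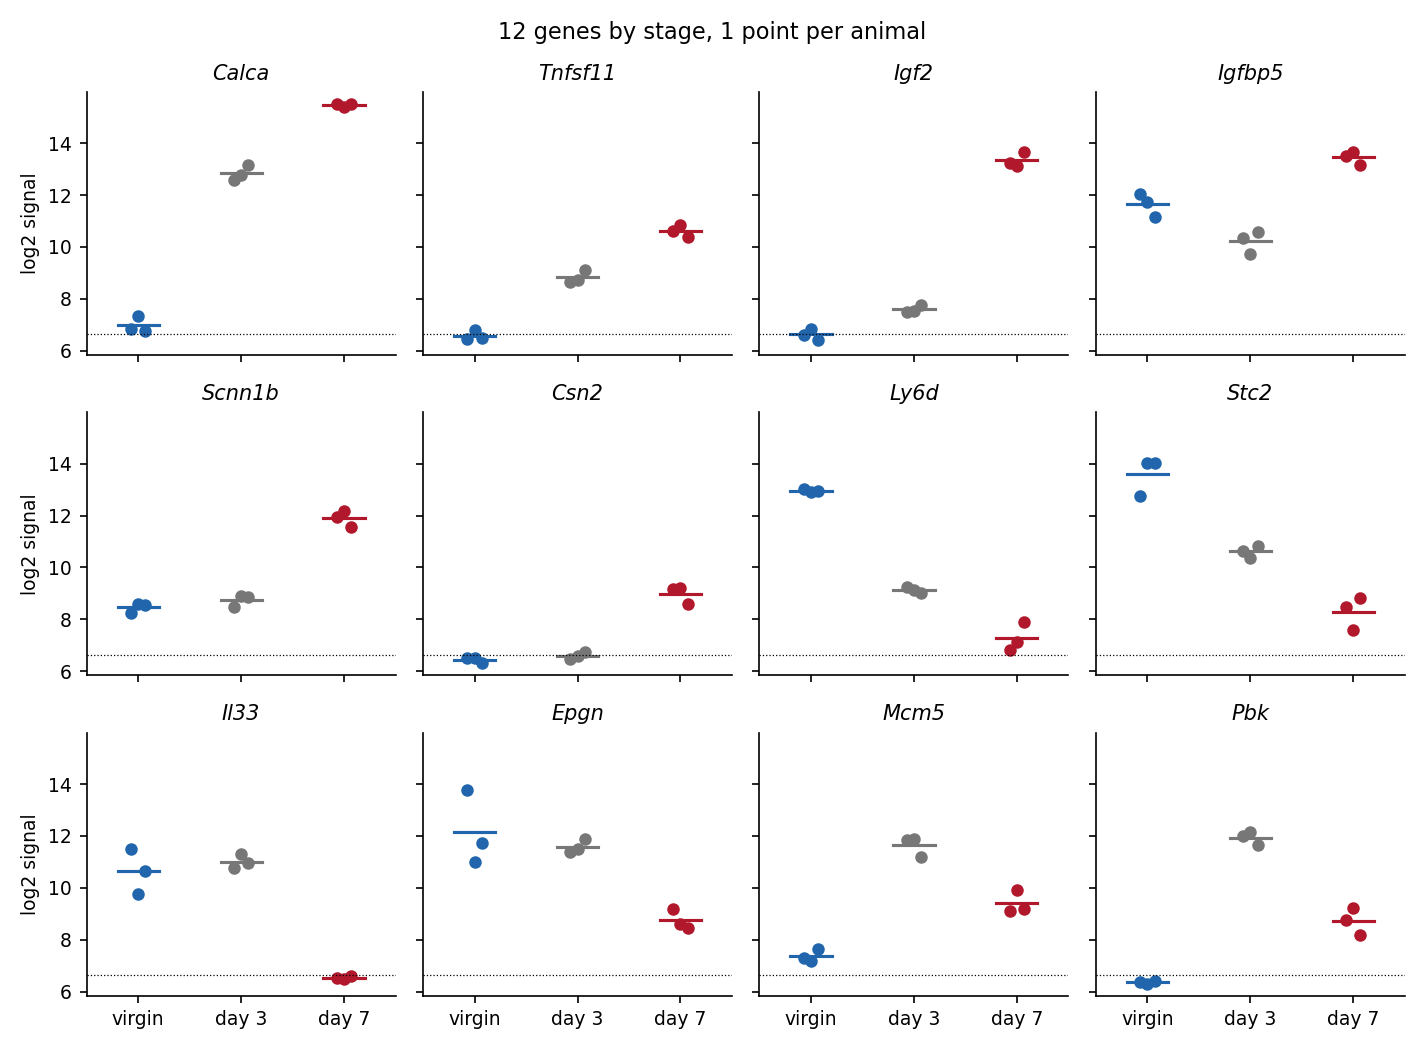
Log2 normalised signal of 12 genes at the virgin stage, day 3 and day 7 of pregnancy, 1 point per animal with a bar at each mean; the dotted line is the background level of 6.64. Igf2, Scnn1b and Csn2 are highest at day 7, Il33 is lowest at day 7, and Mcm5 and Pbk are highest at day 3.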

How the data were processed

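The authors measured amplified, biotin-labelled RNA of sorted HR+ cells on Illumina Mouse WG-6 bead arrays, 1 array per animal. They deposited the scanner intensity of each probe on a linear scale, and log2 values that the authors had quantile normalised over all 9 arrays in Partek Genomics Suite 6.6, per the labels. The log2 values were used here, and differed by at most 0.118 from a quantile normalisation of the deposited intensity. The number of arrays limits the precision.

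All 9 arrays were fitted with limma 3.58.1 in R 4.3.3 (1 mean per group, moderated spread), with the contrast day 7 minus virgin and p-values adjusted by Benjamini and Hochberg over the 17947 tested probes. A call needs a fold of 2 and an adjusted p of 0.10, the limits of the study's methods, which used Cyber-T. Changes are differences of log2 values. An exact permutation test of 3 arrays against 3 cannot go below p = 0.10, so none is given. Where all 3 arrays of the dimmer group lie under 100, a fold is a lower bound against that level.

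A gene's value is that of its brightest tested probe. The platform annotation, updated through Entrez identifiers, and an identifier table of the study with 49 more probes gave the names. Named genes are the 12 with the largest change each way, called members of the lists and genes the study names. The members, the 47 lists and the rules were chosen with earlier results of these data known, and lists were described by counts and medians without a test. Alternatives covered normalisation, background correction, filters, test, thresholds, 1 probe a gene, the replicate block and each array left out. The fit was tested on simulated data. Figures used Python 3.11.15 with matplotlib 3.10.9.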

Additional observations from a re-analysis of the deposited data

How the results depend on the processing

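Scaling each array to a common median in place of quantile normalisation called 1579 genes and 2003 probes, with 1396 genes higher and 182 lower. Thus 88.4% of the called genes were higher, against 49.1% in the reported comparison. The median change over the tested probes was 0.21, against -0.01. With no minimum fold, 3285 genes and 4372 probes passed, with 1770 genes higher and 1499 lower. With 1 array left out at a time, 835 to 960 genes were called, 392 to 465 of them higher and 425 to 495 lower, and 1074 to 1243 probes. The other settings called 822 to 1017 genes. Day 7 and virgin arrays with the same replicate number deviated together by a correlation of 0.074, 0.043 and 0.068, so the numbers were not taken as pairs, although each array correlated best with its own number. The replicate block called 857 genes, 849 of them shared with the reported comparison, and ended the call of Krt14 among the genes named. Of the 146 named genes whose brightest probe was called, 25 lost that call under median scaling, of which 23 lost it on every probe, and 0 to 8 under each other setting, and 0 changed direction. A beadchip block was not run, since the files used here do not give the beadchip. Probes near the background level, and amplified RNA of few cells, limit what these 3 arrays a group can show.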
